A study of Mus musculus with 36 samples.

Results

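Livers of SMJ mice 3 h after acetaminophen were compared with livers of SMJ mice before the dose. Acetaminophen is a painkiller that injures the liver when a large amount is taken. The comparison was made of the 3 arrays whose titles give SMJ at 3 h and the 3 whose titles give SMJ at 0 h, 6 of the 36 arrays in the series. Each array held total RNA from the liver of 1 mouse, and mice are named by strain and number: SMJ95, SMJ96 and SMJ98 at 3 h, and SMJ56, SMJ57 and SMJ58 at 0 h. The mice at 3 h had been given a single dose of 300 mg/kg in the abdomen, and those at 0 h had not yet been dosed. All had been fasted for more than 16 h overnight, which lowers the glutathione of the liver. The labels give no age or sex, and name SMJ as a strain sensitive to the injury. The other strains were SJL, named as resistant, and DBA and C57, named as sensitive, each with 3 mice at 3 h and 3 at 0 h. No mice given vehicle alone were analysed, so the hour of sampling and the hours without food cannot be told apart from the time since dosing.

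In hepatocytes, P450 enzymes turn part of the drug into a reactive quinone imine that glutathione captures until it runs out. The quinone imine then binds proteins, mitochondria make oxidants, and the stress kinase JNK becomes active. Immediate early genes, such as those of the Fos and Jun families, are transcribed within minutes of such signals without new protein. NRF2, a transcription factor released by oxidants and electrophiles, switches on genes that make glutathione and remove oxidants.

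Values are MAS5 signals, a linear brightness per probe set. Changes are log2 differences of 3 h minus 0 h with the standard error (SE) of limma, fitted over all 36 arrays, and adjusted p values are limma's with the Benjamini-Hochberg adjustment over the 13981 genes tested and a threshold of 0.05. Hepatocyte markers were strong on all 6 arrays: Alb, the gene for serum albumin, had signals of 21735, 15569.5 and 18357 at 3 h, against 13719.7, 13298 and 13307 at 0 h. Summed neutrophil markers ranged from 196 to 1213 at 3 h and from 174 to 304 at 0 h. In RNA from whole liver, fewer cells of a type and less RNA per cell cannot be told apart. The signal ratio between the 3' and 5' ends of the actin transcript, which RNA breakdown raises, was 1.36 to 1.52 at 3 h and 1.51 to 1.67 at 0 h. For the Gapdh transcript the ratio went the other way, at 0.724 to 0.766 at 3 h and 0.715 to 0.724 at 0 h.

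The array of SMJ56 stood apart in stress genes before any dose. Fos, a subunit of the AP-1 transcription factor, had a signal of 2523 in SMJ56, against 76.7 in SMJ57 and 79.6 in SMJ58. Hmox1, which breaks down heme and is switched on by oxidants, had 5481 in SMJ56, against 447 and 561 in the other mice at 0 h. Across genes, the correlation of SMJ56 was 0.955 and 0.952 with the other 0 h arrays and 0.954 to 0.957 with the 3 h arrays. That of SMJ57 with SMJ58 was 0.961, those among the 3 h arrays were 0.950 to 0.952, and those of SMJ57 and SMJ58 with the 3 h arrays 0.948 to 0.953. By this measure SMJ56 lay within the range of the other pairs. SMJ56 was the highest of the 3 arrays at 0 h for 37.7% of all genes tested and for 82.6% of the 23 immediate early genes tested. The main results are therefore given with and without this array. Since it was singled out for its high stress genes, more of these genes pass without it by construction, and counts without it are a description.

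With all arrays, 24 genes passed (0.172% of the genes tested): 23 rose and 1 fell at 3 h (0.165% and 0.00715%). At an unadjusted p under 0.05 there were 1139 genes. Without SMJ56, 99 passed (0.709% of 13966 genes), of which 74 rose and 25 fell (0.53% and 0.179%), and the 24 genes of the first count were all among them. Fitted on the 6 SMJ arrays alone, 0 genes passed by limma and 1060 had an unadjusted p under 0.05. All 23 risen genes rose by at least 2-fold, and all had their 3 arrays at 3 h above the 3 at 0 h, as did 7.39% of all genes tested. SMJ56 was the highest array at 0 h in 18 of these 23. Among the 74 genes that rose without SMJ56, the signal of SMJ56 lay between the other 0 h arrays and the 3 h arrays in 53. All 25 that fell had their lowest 0 h signal in SMJ56, a pattern that leaving out this array favours.

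**Figure D1:**
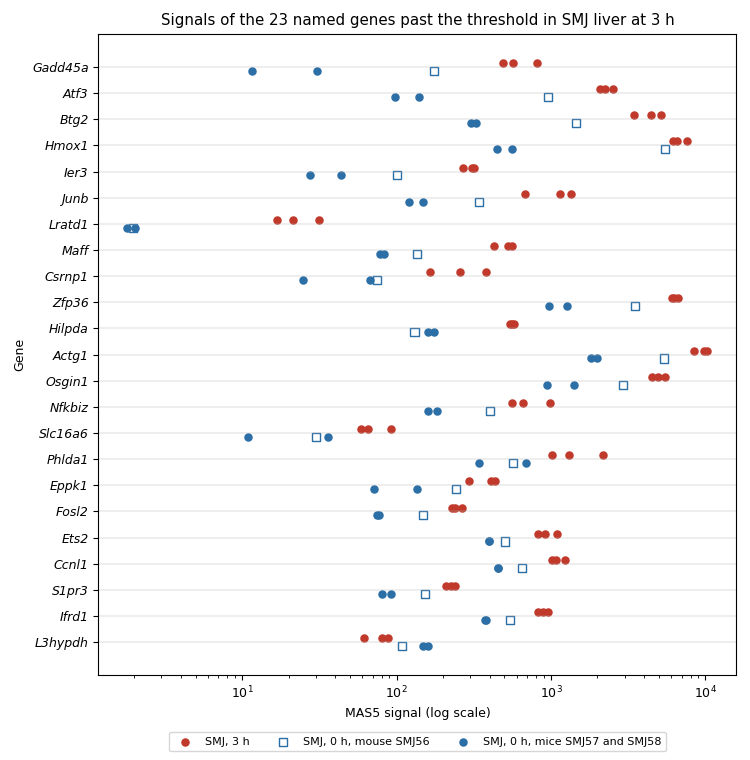
MAS5 signal (log scale) of the 22 named genes that rose and of L3hypdh, which fell, with 1 point per mouse: red for 3 h, filled blue for SMJ57 and SMJ58 at 0 h, and an open square for SMJ56 at 0 h. Red points lie to the right of all 0 h points in each risen gene, and in 18 of the 22 risen genes drawn the square is the highest 0 h point, as in Hmox1 (5481, against 447 and 561).

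Gadd45a, a growth arrest gene that responds to DNA damage and other stress, had 488, 571 and 811 at 3 h, against 174, 11.6 and 30.7 at 0 h in SMJ56, SMJ57 and SMJ58. It rose 13.9-fold (log2 change 3.80 ± 0.55 SE, n = 3 mice each, limma adjusted p = 0.00105), and by 4.80 without SMJ56. It was the 1 that passed of 8 Gadd45 and growth arrest genes, where 0.165% of all genes tested rose. Of the 8, 4 had a positive change (6953 of 13981 over all genes tested), and their median was 0.08. The lowest, Gas1, a membrane protein linked to growth arrest, changed by -0.96. Atf3, a transcription factor of the ATF/CREB family induced by many kinds of cell stress, had 2071, 2522 and 2223 at 3 h, against 953, 98.2 and 140.6. Its mice did not overlap between the times, and SMJ56 stood between the groups. Atf3 rose 9.44-fold (3.24 ± 0.59, adjusted p = 0.0131 by limma), and the log2 change was 4.24 without SMJ56.

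Btg2, which restrains cell division, had 3450, 4418 and 5187 at 3 h, against 1447, 325 and 304 at 0 h. It had the smallest p of all genes (log2 change 3.03 ± 0.35, limma adjusted p = 7.05e-05), its change was 3.76 without SMJ56, and its other probe set gave 3.03 with all arrays. Ier3, an early gene that modulates cell survival, had 269, 316 and 308 at 3 h, against 100.8, 27.6 and 43.9. Ier3 rose by 2.51 ± 0.38 on the log2 scale, or 2.99 without SMJ56. Junb, an AP-1 subunit, rose by 2.46 ± 0.40, with 682, 1141 and 1348 at 3 h, against 341, 120.0 and 149. Fosl2, another AP-1 subunit, rose by 1.33 ± 0.26, with 227, 264 and 240 at 3 h, against 149, 74.9 and 76.9. Without SMJ56 the changes of Junb and Fosl2 were 2.90 and 1.65. A second probe set of Fosl2 gave 0.48 with all arrays.

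Btg2, Ier3, Junb, Fosl2 and Atf3 were the 5 of 23 immediate early genes that rose, where 0.165% of all genes did. No immediate early gene fell. The 3 h arrays lay above all 0 h arrays in 17 of the 23, as in 7.39% of all genes tested. The list's median change was 1.33, beside -0.0013 over all genes tested. Without SMJ56, 12 passed, where 0.53% of all genes rose, and the median was 1.65. Fos had 3680, 4819 and 4248 at 3 h, against 2523, 76.7 and 79.6 at 0 h. Its change of 4.05 ± 0.94 was the largest rise of all genes tested with all arrays but did not pass (limma adjusted p = 0.0676), and without SMJ56 it was 5.71 (0.000133). Egr1, a zinc finger factor switched on by growth and stress signals, had 11364, 10291.5 and 8761 at 3 h, against 5824, 358 and 422. Its change was 3.39 with SMJ56 (adjusted p = 0.0591 by limma) and 4.69 without it. Jun, the partner of Fos in AP-1, had 7743, 6655 and 6747 at 3 h, against 5553, 1025 and 953, a change of 2.00 with an adjusted p of 0.384 (limma). Klf2, a factor of the vessel lining, passed without SMJ56, which lay above the 3 h arrays: 434, 412 and 412 at 3 h, against 458 in SMJ56 and 159.5 and 146 in the others. Jund and Nr4a2, by contrast, changed by 0.06 and -0.25.

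**Figure D2:**
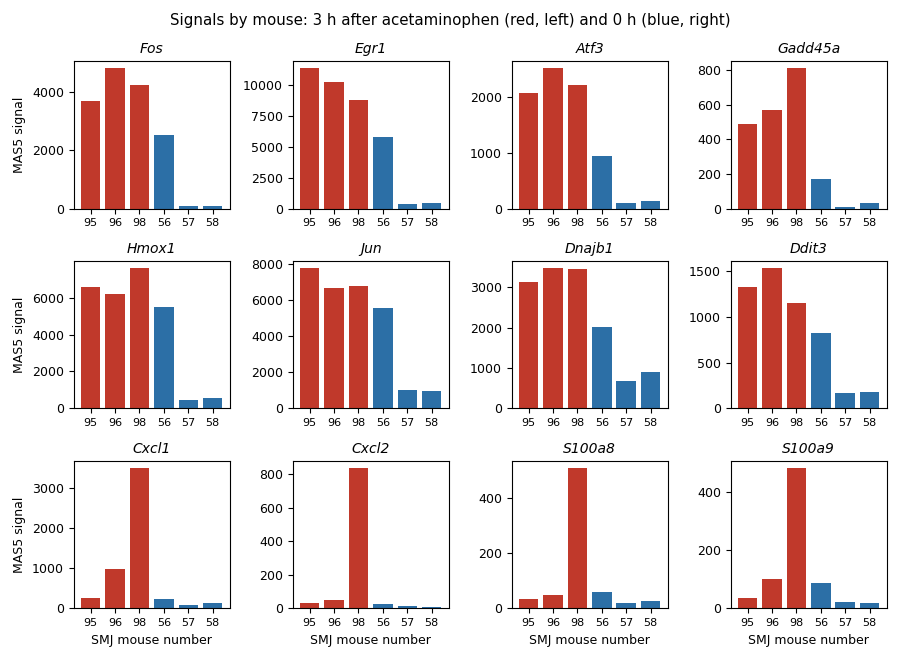
MAS5 signal of 12 genes in each SMJ mouse, with the 3 h mice (95, 96 and 98) as red bars on the left and the 0 h mice (56, 57 and 58) as blue bars on the right of each panel. In the upper 8 panels mouse 56 is the high mouse at 0 h (Fos at 2523, against 76.7 and 79.6), and in the lower 4 panels mouse 98 is the high mouse at 3 h (Cxcl1 at 3488, against 261 and 965).

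Genes of mRNA decay and feedback were also among those that rose. Zfp36, a protein that binds AU-rich elements and hastens the decay of cytokine mRNAs, had 6256, 6662 and 6088 at 3 h, against 3520, 1263 and 975. It rose 3.88-fold (log2 change 1.95 ± 0.36, limma adjusted p = 0.014), or by 2.51 on the log2 scale without SMJ56. It was the only 1 of 11 regulators of mRNA decay to pass with all arrays, where 0.165% of all genes tested rose. Arid5a, which stabilises some cytokine mRNAs, also passed without SMJ56, at 2.63, where 0.53% of all genes rose. Nfkbiz, a nuclear IκB protein that adjusts NF-κB targets, rose by 1.64 ± 0.34, with 557, 662 and 984 at 3 h, against 404, 182.4 and 160. It was the only 1 of 13 NF-κB subunits and feedback genes to pass, and that list's median was 0.07. That median was -0.21 without SMJ56, where Nfkbiz alone again passed (2.05). None of the 9 dual-specificity phosphatases, which switch off MAP kinases, passed with all arrays by limma. Of the 9, 4 had an unadjusted p under 0.05 (1139 of 13981 over all genes tested). Dusp1, which acts on JNK and p38, had 3463, 3762 and 3903 at 3 h, against 2767, 940.1 and 960, and Dusp5 passed without SMJ56, at 2.19.

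Other risen genes with transcriptional or signalling roles were Csrnp1, a nuclear protein induced by axin, at 2.26 ± 0.44, and Ets2, an ETS family factor, at 1.11 ± 0.20. Ccnl1, a cyclin that takes part in RNA splicing, had 1019, 1081 and 1230 at 3 h, against 645, 454 and 456, a change of 1.11 ± 0.16. Ifrd1, a transcriptional co-regulator, rose by 1.05 ± 0.20, Phlda1 by 1.48 ± 0.31, and S1pr3, a receptor for sphingosine 1-phosphate, by 1.09 ± 0.21. The calls of Phlda1 and Nfkbiz were lost in 21 and 9 of the 36 fits that left out 1 array. Without SMJ56 all 6 passed, at 2.53 (Csrnp1), 1.23 (Ets2), 1.28 (Ccnl1), 1.23 (Ifrd1), 1.55 (Phlda1) and 1.36 (S1pr3). The other probe set of Csrnp1 lay low at both times and gave -0.88, and the other probe sets of Ets2 gave 1.80 and -0.16.

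Actg1, cytoplasmic gamma actin, had 9726, 8368 and 10305 at 3 h, against 5385, 1995 and 1810 at 0 h, and rose 3.50-fold (log2 change 1.81 ± 0.28, limma adjusted p = 0.0021). Eppk1, a plakin that organises keratin filaments, rose by 1.46 ± 0.31. Without SMJ56 these changes were 2.31 and 1.88. Hilpda, a lipid droplet protein that inhibits fat breakdown, had 546, 559 and 574 at 3 h, against 131, 175 and 161. It rose by 1.84 ± 0.34, and SMJ56 was its lowest array at 0 h, so its change was smaller without that array (1.72). Slc16a6, of the monocarboxylate transporter family, rose by 1.50 ± 0.32, with 59.2, 92.4 and 65.2 at 3 h, against 30.3, 10.9 and 36.2. Lratd1 had 16.9, 31.5 and 21.4 at 3 h, against 1.98, 1.81 and 2.03, below the offset of 2.77 that was added to every signal, so the size of its change (2.43 ± 0.42) depends on the offset. With an offset of 32, Lratd1 did not pass. Slc16a6 lost its call in 24 and Eppk1 in 19 of the 36 fits that left out 1 array, and Slc16a6 also without the offset and after quantile normalization. Without SMJ56 Slc16a6 and Lratd1 changed by 1.67 and 2.44.

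L3hypdh, an enzyme of hydroxyproline breakdown, was the single gene that fell with all arrays. It had 87.5, 80.0 and 61.97 at 3 h, against 108, 148 and 160 at 0 h, and fell by 0.83 on the log2 scale (SE 0.17, limma adjusted p = 0.0275), or by 0.99 without SMJ56. In genes that passed as lower without SMJ56 but not with it, that mouse had the lowest 0 h signal, and leaving it out favours such genes. Bid, a pro-apoptotic member of the BCL2 family, had 210.1, 225.9 and 171 at 3 h, against 213 in SMJ56 and 359 and 407 in the others. Erbb3, a growth factor receptor, had 718, 823 and 706 at 3 h, against 666 in SMJ56 and 1358 and 1261. Ogt, which attaches N-acetylglucosamine to proteins, had 310, 360 and 359 at 3 h, against 405, 643 and 694, a change of -0.72 with all arrays (adjusted p = 0.068, limma). Blvrb, which reduces biliverdin and flavins downstream of heme breakdown, had 1068, 1044 and 974 at 3 h, against 1267, 1514 and 1655. Its fall of 0.51 missed the threshold with all arrays (adjusted p = 0.052, limma).

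Of the 31 NRF2 targets tested, 2 rose, Hmox1 and Osgin1, and none fell, where 0.165% of all genes rose. Their median change was 0.31, and in 12 the 3 h arrays lay above all those at 0 h, as in 7.39% of all genes tested. Hmox1 had 6562, 6176 and 7591 at 3 h, against 5481, 447 and 561 at 0 h. It rose 6.05-fold with SMJ56 (log2 change 2.60 ± 0.51, limma adjusted p = 0.0209) and by 3.74 ± 0.28 without it. Osgin1, an oxidative stress-induced growth inhibitor, had 4900, 5471 and 4498 at 3 h, against 2910, 936 and 1400, and rose by 1.66 ± 0.31, or 2.11 without SMJ56. Srxn1, which repairs overoxidised peroxiredoxins, had 2954, 1810 and 2114 at 3 h, against 1560, 640 and 559. Its change of 1.44 passed only without SMJ56 (1.90).

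Gclc, the catalytic subunit of the enzyme that limits glutathione synthesis, had 7197, 6922 and 7111 at 3 h, against 4918, 3290 and 3718. The groups did not overlap, yet its change of 0.85 ± 0.23 did not pass (limma adjusted p = 0.159), and without SMJ56 it was 1.02 (0.0526). The partner subunit gene Gclm changed by 0.18 ± 0.11. Txnrd1, thioredoxin reductase, changed by 0.57 ± 0.17, and Nqo1, a quinone reductase, by 0.74 ± 0.31, with 93.6, 105 and 139 at 3 h overlapping 63.8, 97.2 and 44.8 at 0 h. Among the small MAF and Bach proteins, the partners and rivals of NRF2 on DNA, Maff rose, with 428, 525 and 559 at 3 h, against 136, 83.3 and 78.4 (2.35 ± 0.37, limma adjusted p = 0.0021, and 2.59 without SMJ56). Maff was the 1 of these 8 genes to pass, where 0.165% of all genes tested rose. The other 7 did not pass: Mafk changed by 0.78 and Bach1 by 0.67. Mt1 and Mt2, metallothioneins that bind zinc and copper, changed by 1.36 and 0.84, and Mt2 passed only without SMJ56 (1.13). A brighter probe set of Mt1, whose name marks it as shared, gave 0.60 with all arrays.

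**Figure D3:**
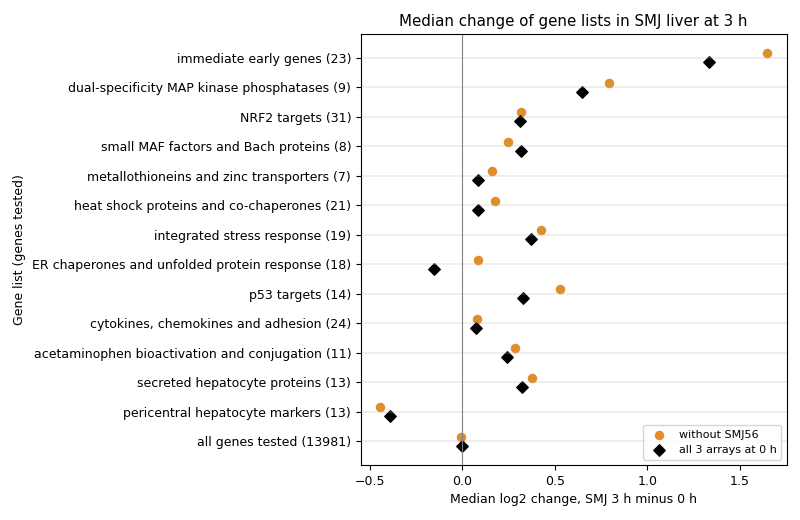
Median log2 change, 3 h minus 0 h, of 13 gene lists and of all genes tested, with the number of genes in brackets; diamonds use all 3 mice at 0 h and circles leave out SMJ56. Immediate early genes stand at 1.33 with all mice and 1.65 without SMJ56, and chaperones of the endoplasmic reticulum (ER) change sign, at -0.15 and 0.09.

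Promoters of the risen genes were searched for 5 motifs on both strands, in the 250 bases before the start of each gene (RefSeq, GRCm38.p6), which were at hand for 18 of the 23 genes. The motifs were chosen with the risen genes known. The cyclic AMP response element TGACGTCA, which ATF and CREB factors bind, was in 3 of the 18 (16.7%) and in 2.77% of the 11240 tested genes with a promoter. The AP-1 motif TGANTCA was in 3 others (Csrnp1, Hilpda and Osgin1; 16.7%, beside 6.27%). The antioxidant element core TGACNNNGC was in 2 (11.1%, beside 13.7%), the heat shock pair GAANNTTC in 1 (5.56%, beside 6.29%) and the CArG box, the site of serum response factor, in Actg1 and Zfp36 (11.1%, beside 1.42%). Among the 58 genes with a promoter that rose without SMJ56, the shares were 10.3% for TGACGTCA, 13.8% for TGANTCA and 22.4% for TGACNNNGC. They were 3.45% for GAANNTTC and 5.17% for the CArG box. With all arrays the antioxidant core, found in 2 genes, was near its share of all tested genes, and without SMJ56 it was above that share. The difference between these sets was not tested. A match describes the letters only and does not show binding. The 3 promoters with TGACGTCA and that of Osgin1 are shown because their genes are among those described above, each read 5′ to 3′ on the gene's own strand and ending 1 base before its start. Capitals mark the motif, and none of these matches overlapped another of the 5. They lie on the minus strand at chr1:134079156-134079405 (Btg2) and chr3:65958250-65958499 (Ccnl1), and on the plus strand at chr15:79347270-79347519 (Maff) and chr8:119436897-119437146 (Osgin1).
Btg2: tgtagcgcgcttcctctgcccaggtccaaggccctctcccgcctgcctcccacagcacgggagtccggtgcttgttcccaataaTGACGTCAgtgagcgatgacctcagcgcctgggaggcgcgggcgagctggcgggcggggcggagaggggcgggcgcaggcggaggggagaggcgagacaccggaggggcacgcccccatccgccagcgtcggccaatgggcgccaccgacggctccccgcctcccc
Ccnl1: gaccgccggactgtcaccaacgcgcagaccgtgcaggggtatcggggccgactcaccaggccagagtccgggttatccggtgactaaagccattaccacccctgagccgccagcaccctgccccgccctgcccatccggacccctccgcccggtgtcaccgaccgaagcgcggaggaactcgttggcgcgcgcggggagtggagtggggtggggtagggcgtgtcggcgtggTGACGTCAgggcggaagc
Maff: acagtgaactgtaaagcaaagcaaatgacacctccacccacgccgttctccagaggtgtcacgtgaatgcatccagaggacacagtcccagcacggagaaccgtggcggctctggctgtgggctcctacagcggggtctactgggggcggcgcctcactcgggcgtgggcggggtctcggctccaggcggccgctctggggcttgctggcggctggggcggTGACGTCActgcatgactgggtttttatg
Osgin1: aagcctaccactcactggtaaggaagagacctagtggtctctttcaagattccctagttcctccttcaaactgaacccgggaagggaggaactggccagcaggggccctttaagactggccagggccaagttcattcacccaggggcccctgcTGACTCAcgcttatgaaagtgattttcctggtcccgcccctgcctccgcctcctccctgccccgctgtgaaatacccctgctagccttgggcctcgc
In Ccnl1 and Maff the motif ends 11 and 22 bases before the start, and in Btg2 it lies farther from it. The motif of Osgin1 is the AP-1 letters.

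Protein damage genes did not pass with all arrays. Of 21 heat shock proteins and co-chaperones, 0 passed by limma and 5 had an unadjusted p under 0.05, with a median of 0.08. Over all genes tested, 1139 of 13981 had an unadjusted p under 0.05 with all arrays, and 1611 of 13966 without SMJ56. Hspa1a, the inducible HSP70 whose probe sets can share signal with its near copy Hspa1b, had 646, 1206 and 1199 at 3 h, against 649, 156 and 130, so SMJ56 lay within the 3 h range. Dnajb1, an HSP40 partner of HSP70, had 3125, 3470 and 3447 at 3 h, against 2013, 687 and 908.0. Its change was 1.63 ± 0.44 (limma adjusted p = 0.159) and 2.08 without SMJ56. Without that array it alone of the 21 passed, where 0.53% of all genes rose. Of 19 genes of the integrated stress response, 0 passed by limma with all arrays (6 at an unadjusted p under 0.05). Ddit3 and Atf4 passed without SMJ56, again beside 0.53% of all genes. Ddit3, the pro-apoptotic factor CHOP, had 1324, 1529 and 1149 at 3 h, against 819, 169.4 and 178 (2.17 with SMJ56, 2.91 without). Atf4, the factor that drives this response, had 2050, 1815 and 1698 at 3 h, against 2081, 967 and 1033. The 18 chaperones and sensors of the endoplasmic reticulum had 0 past limma's threshold with or without SMJ56 (1 and 2 at an unadjusted p under 0.05), a median of -0.15 with all arrays and 0.09 without SMJ56, and the highest 0 h signal in SMJ56 in 14. Of 14 p53 targets 0 passed by limma, with 4 at an unadjusted p under 0.05. Mdm2, which degrades p53, had 501, 516 and 406 at 3 h, against 340, 221 and 287 (0.76 ± 0.21).

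Chemokine genes differed between the mice at 3 h. Of 24 cytokines, chemokines and adhesion molecules 0 passed by limma, with a median of 0.07. Of the 24, 4 had an unadjusted p under 0.05 (1139 of 13981 over all genes tested). In 5 the 3 h arrays lay above those at 0 h, as in 7.39% of all genes tested. Cxcl1, a chemokine that draws neutrophils, had 261, 965 and 3488 at 3 h in SMJ95, SMJ96 and SMJ98, against 235, 87.4 and 124 at 0 h. Cxcl2, of the same family, had 29.7, 51.7 and 838, against 24.5, 16.0 and 6.69. SMJ98 was highest in both, and both changes had a wide error (2.78 ± 0.95 and 2.75 ± 0.82). S100a8 and S100a9, which form a protein abundant in neutrophils, had 508 and 481 in SMJ98, while their highest signals in SMJ95 and SMJ96 were 47.8 and 98.6, and at 0 h 59.7 and 85.5. None of the 8 neutrophil markers tested passed by limma, 0 had an unadjusted p under 0.05, and none had 3 h arrays above all those at 0 h. Socs3, which blocks cytokine signalling through STAT3, had 320, 507 and 982 at 3 h, against 127, 118 and 142, and narrowly missed the threshold (2.05 ± 0.45, limma adjusted p = 0.052). The part of other cell types in these signals was not tested.

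No hepatocyte marker list had a gene past the threshold. The 13 genes of secreted hepatocyte proteins all had a positive change, between 0.14 and 0.45, and 0 passed by limma. Of these, 10 had an unadjusted p under 0.05 (1139 of 13981 over all genes tested), and in 9 the 3 h arrays lay above those at 0 h (7.39% over all genes tested). Cyp2e1 and Bhmt, bright genes outside that list that are given below, changed within the same range. Cyp1a2 and Glul, also outside it, went the other way (-0.21 and -0.36). Whether bright genes shifted as a set was not tested. Among the 13 pericentral markers, genes of the zone around the central vein where the injury begins, 2 had a positive change, the median was -0.39 and 0 passed by limma (1 at an unadjusted p under 0.05). Cyp2e1, the P450 enzyme that activates acetaminophen, had 19464, 14054 and 18711 at 3 h, against 15552, 13574 and 13499.5 (0.28 ± 0.21, limma adjusted p = 0.788). Glul, glutamine synthetase, had 1675, 1216 and 1708 at 3 h, against 2132, 1701 and 2017. Bhmt, which remethylates homocysteine with betaine, had 21589, 14659 and 21147 at 3 h, against 16647, 12803 and 12449 (0.44 ± 0.15). Hamp, the gene of the iron hormone hepcidin, had 8835, 5419 and 7418 at 3 h, against 7624, 1835 and 483, so SMJ56 lay among the 3 h mice, and it passed only without that mouse (2.91).

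Lists of liver metabolism had 0 genes past limma's threshold with or without SMJ56. Over all genes tested, 1139 of 13981 had an unadjusted p under 0.05 with all arrays, and 1611 of 13966 without SMJ56. The 22 genes of fatty acid oxidation had a median of 0.06, with 0 at an unadjusted p under 0.05, and the 17 of cholesterol synthesis and uptake had -0.16, also with 0. The 11 genes of acetaminophen activation and conjugation had a median of 0.24, likewise with 0. Of 20 genes of the methionine cycle and sulfur amino acids, 4 had an unadjusted p under 0.05 (8 without SMJ56), with a median of 0.07. Of 11 genes of the growth hormone and IGF axis, 4 had one, with a median of 0.13. Of 18 genes of fatty acid and triglyceride synthesis, 2 had one, with a median of 0.16. Thrsp, which promotes fat synthesis, had 1022, 398 and 690.5 at 3 h, against 246, 127 and 96.3 at 0 h, a change of 2.16 ± 0.66 (limma adjusted p = 0.288). G0s2, an inhibitor of fat breakdown, had 187, 191 and 165 at 3 h, against 366, 608 and 905, a change of -1.68 ± 0.50 (limma adjusted p = 0.26). The groups did not overlap in either gene. The 16 genes of glucose production and use and the 16 of bile acids had 1 and 0 at an unadjusted p under 0.05, with medians of -0.02 and 0.10. Among 18 genes of the circadian clock, which bear on the hour of sampling, 3 had an unadjusted p under 0.05. Ciart, a repressor of the clock, changed by 1.98, and the repressors Bhlhe41 and Bhlhe40 by 1.63 and 0.68. Bhlhe41 lay low, with 11.3, 34.1 and 28.5 at 3 h, against 10.2, 6.32 and 1.92 at 0 h. Its other probe set gave 0.19. The list's median was 0.07, and Dbp, an output gene of the clock, changed by 0.58.

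To ask whether the change was particular to SMJ, it was set against the mean change of SJL, DBA and C57. All 23 risen genes also had a positive mean change in the other strains. The median of that mean change over all genes tested was -0.044, and the share of all genes with a positive one was not counted. Of the 23, 19 also rose in SJL, 19 in DBA and 10 in C57, where 4.48%, 1.09% and 0.2% of all genes rose. The difference in change passed for 1 gene, Dusp8, or 0.00715% of those tested, and 721 genes had an unadjusted p under 0.05. Without SMJ56, 0 genes passed by limma and 1006 had an unadjusted p under 0.05.

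Dusp8, a phosphatase that acts on JNK and p38, changed less in SMJ. It had 307, 268 and 167.5 at 3 h, against 151, 204 and 201 at 0 h in SMJ, and these overlap. In SJL it averaged 240.1 ± 115.1 at 3 h and 7.65 ± 3.62 at 0 h, in DBA 161 ± 30.9 and 10.4 ± 6.16, and in C57 136 ± 14.9 and 49.8 ± 19.4 (SD, n = 3 each). The SMJ mean was 247 ± 71.9 at 3 h and 186 ± 29.9 at 0 h, so before the dose it stood above the 0 h means of the other strains, a difference of levels that was not tested. The SMJ change was 0.38, that of the others 3.21, and the difference -2.83 ± 0.47 (limma adjusted p = 0.0318), or -2.97 without SMJ56 (0.077). The 0 h means of SJL and DBA lay below the median of all values, 30.8, so the size of the difference depends on the offset: with an offset of 32 it was -1.64 (limma adjusted p = 0.178). With the mean of all probe sets it was -1.66 (0.389), and with the arrays of these groups alone the adjusted p was 0.0911 (limma). The call was lost in 16 of the 36 fits that left out 1 array. In SMJ its other probe sets gave changes of 0.51 and 1.12.

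The next smallest p values belonged to Chac1 and Ifrd1, which did not pass. Chac1, an enzyme that breaks down glutathione and a target of Atf4, had 161, 151 and 165 at 3 h, against 162, 103.2 and 58.9 at 0 h in SMJ. At 3 h it averaged 1112 ± 678 in SJL, 1424 ± 344 in DBA and 482 ± 145 in C57, against 78.6 ± 15.3, 83.8 ± 22.0 and 131 ± 70.9 at 0 h (SD, n = 3 each). The difference was -2.56 ± 0.48, with a limma adjusted p of 0.079, and -2.21 without SMJ56 (0.254). Here it was the 3 h level that was lowest in SMJ. Lratd1 was the risen gene with the least change elsewhere (0.15, difference 2.28, limma adjusted p = 0.153). Atf3 and Hmox1 had differences of -2.53 and -1.49 with SMJ56 and of -1.54 and -0.35 without it, none past the threshold.

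**Figure D4:**
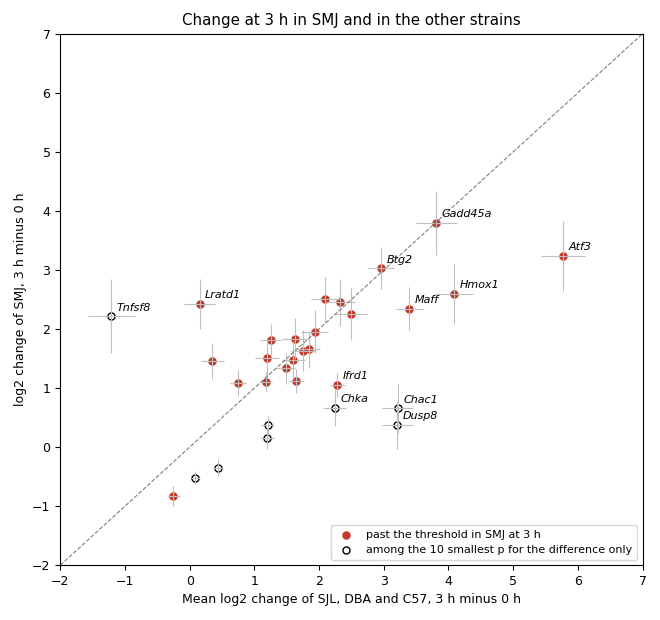
Log2 change, 3 h minus 0 h, in SMJ (vertical axis) and as the mean of SJL, DBA and C57 (horizontal axis), with bars of 1 SE; red points passed in SMJ, open points are other genes with the smallest p for the difference, and the dashed line marks equal change. Dusp8 lies at 0.38 in SMJ and 3.21 in the other strains, and Gadd45a on the line at 3.80 and 3.81.

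The risen genes were also set beside the SMJ mice at 6 h, which were other mice. Of the 23, 22 had a higher mean at 6 h than at 3 h, and in 17 every 6 h array lay above every 3 h array. The same counts over all genes tested were not made, so these describe the 23 genes only. Ier3 averaged 57.4 at 0 h, 298 at 3 h and 1367 at 6 h, and Maff 99.2, 504 and 1986. Hmox1 was the exception, at 2163 at 0 h with SMJ56, 6776 at 3 h and 4062 at 6 h.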

How the data were processed

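Liver RNA of 36 mice was hybridised to 1-colour Affymetrix arrays, 1 mouse per array, in 12 groups of 3. The deposited intensity values are MAS5 signals on a linear scale, per the submitters' processing notes; the version is not given in the sources used here. The 2% trimmed mean of each array was 150, and the values were used as deposited. The number of arrays limits the precision.

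An offset of 2.77, the 10th percentile of all values, was added before the log2 was taken. A gene was represented by its brightest probe set with 1 symbol, updated through RefSeq, and a probe set whose name marks it as shared only where there was no other. Of 18193 genes, 13981 with at least 3 arrays above 30.8, the median of all values, were tested. Group means were fitted with limma 3.58.1 in R 4.3.3 (24 residual degrees of freedom, or 23 and 13966 genes without SMJ56), with a Benjamini-Hochberg threshold of 0.05. All p values are two-sided. No batch is given in the labels. Each of the 36 arrays was left out in turn.

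The comparison and the 38 gene lists (565 genes, 509 tested) were chosen with earlier results of these data known. Named genes were those past the threshold with an official name, the 15 largest each way without SMJ56, the 10 smallest p for the strain difference, up to 4 per list and 16 fixed genes. Alternatives changed the offset, scaling, filter, probe set rule and variance model.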

Additional observations from a re-analysis of the deposited data

Results flagged for a closer look

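The change at 3 h in SMJ differed from the mean change of SJL, DBA and C57 for 1 gene by limma's test of the difference itself. That gene was Dusp8, whose difference was -2.83 on the log2 scale (limma adjusted p = 0.0318). The call was lost without SMJ56 (0.077 by limma), with an offset of 32 (0.178) and in 16 of the 36 fits that left out 1 array, and its 0 h means in SJL and DBA were 7.65 and 10.4, near the offset of 2.77.

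Probe sets without a single gene symbol were outside the report's comparison. Of 5063 of these that were tested, 12 passed at 3 h in SMJ by limma, 10 higher and 2 lower, and 30 higher and 12 lower passed without SMJ56.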

How the results depend on the processing

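No paired analysis was possible because no mouse number occurs in 2 groups. The cause of the shifts given here was not tested, unless fewer arrays or genes entered. With all arrays, 24 genes passed. The count was 0 by limma with the 6 arrays alone (1060 at an unadjusted p under 0.05), 41 with an offset of 32, 49 when only genes above 100 on 3 arrays were tested, 39 with a trended and robust variance and 167 with array weights, which put SMJ56 at 0.60, rank 4 from the lowest of 36. Leaving out 1 array gave 9 to 99: 12 without SMJ57, 9 without SMJ58, 10 without SMJ96, 45 without SJL39 and 99 without SMJ56. Without SMJ56, in percent of the genes tested, 0.709% passed with the other settings kept, 0.243% with the 5 arrays alone and 2.64% with array weights. Leaving out 1 more array gave 0.193% to 1.14% (0.193% without SMJ58, 0.337% without SMJ57, 0.373% without SMJ95, 0.38% without SMJ98, 1.14% without SJL39), where a lone 0 h mouse is assumed to vary like the other groups. Scaling by the 75th percentile made its split 87 higher and 15 lower, against 74 and 25.

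The difference from the other strains passed for 1 gene. The count was 0 by limma with the arrays of these groups alone (702 at an unadjusted p under 0.05), 0 with the mean of all probe sets (689), 3 above a signal of 100, 3 with a trended and robust variance and 7 with array weights. Leaving out 1 array gave 0 to 4, with 0 for 15 of 36 arrays. With an offset of 32 the 1 gene was not Dusp8.

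The 23 named genes past the threshold kept their direction in all 10 alternatives, and their calls in 195 of 230 pairs of a gene and an alternative. All 23 lost their calls with the 6 SMJ arrays alone. Csrnp1, Ets2, Fosl2 and S1pr3 lost theirs with the mean of all probe sets, Phlda1 and Slc16a6 with no offset, Slc16a6 with quantile normalization, Lratd1 with an offset of 32, and Eppk1, Nfkbiz, Phlda1 and Slc16a6 with no filter. Of the 23, 7 (Actg1, Btg2, Ccnl1, Gadd45a, Ier3, Junb and Maff) passed without any 1 of the 36 arrays. Of the 23, 13 were lost without SMJ57, 14 without SMJ58, 10 without SMJ95, 16 without SMJ96 and 14 without SMJ98. Signals near the offset, as for Lratd1, limit the size of a change.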
